A study of Mus musculus with 40 samples.

Results

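The comparison described here asked whether the diet of the mother left a mark on DNA methylation in the liver of offspring that were themselves fed a high-fat diet. It used 20 of the 40 livers of the study, chosen by the diets given in the sample labels. In 10 males the dam was fed a high-fat (HF) diet from before pregnancy to weaning and the animal was fed HF after weaning (maternal HF, adult HF), called here HF dam offspring. In the other 10 the dam was fed a low-fat (LF) diet and the animal was also fed HF after weaning (maternal LF, adult HF), called here LF dam offspring. All 40 animals were C57BL/6 males by the labels (C57BL/6J by the methods), killed at 9 weeks, and the remaining 20 (maternal HF or LF, adult LF, 10 of each) were used to show whether a difference was also present in animals fed LF after weaning, to test the interaction of both diets, and to choose and centre the CpGs over all mice. The litters of the animals are not given in the sources used here. Littermates could therefore not be told apart and each mouse was counted as a replicate. The maternal diet was given per dam, so the p-values are too small if littermates are alike.

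DNA methylation was measured by reduced representation bisulfite sequencing (RRBS), which cuts DNA with MspI at CCGG sites, converts unmethylated cytosines with bisulfite and reads the remaining cytosines. It covers many CpG islands and promoters and fewer distal regions. In mammals most CpGs are methylated by DNA methyltransferases, while CpG islands at the start of active genes stay mostly unmethylated and imprinted regions carry methylation on the copy from a single parent. In the liver, hepatocytes make up most of the DNA, with endothelial cells, Kupffer cells, stellate cells and bile duct cells. A change in the share of these cell types and a change of methylation within a cell type cannot be told apart in whole tissue.

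The reads at CpGs summed to between 2969907 and 23345592 per HF dam animal and to between 3488092 and 13768497 per LF dam animal. The median coverage of a CpG ranged from 12 to 54 reads and from 13 to 32 reads per animal, so that 1 read moved the percentage of a CpG by several points in most animals. Of the 20 animals 3 had under 5000000 reads (replicates 8 and 9 of the HF dams and replicate 10 of the LF dams) and lacked between 29.1% and 42.1% of the CpGs tested. The methylation level of a CpG is the percentage of its reads that were methylated. It was tested at CpGs with at least 10 reads in 36 or more of the 40 mice, and a difference is given as HF dam offspring minus LF dam offspring, in percentage points.

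The difference in mean methylation between the groups was within the spread between animals. Over the 34368 CpGs with a total in every mouse, it was 39.33% ± 0.363 (SD, n = 10) in HF dam offspring, from 38.42% to 39.71% with a median of 39.35%. It was 39.55% ± 0.260 (SD, n = 10) in LF dam offspring, from 39.21% to 39.90% with a median of 39.57%. The ranges overlapped, and replicate 2 of the HF dams, the most deeply sequenced of the 20 libraries, lay below every other animal. The difference was -0.22 percentage points (SE 0.141, 2-sided permutation test, p = 0.124), and without replicate 2 it was -0.12 percentage points.

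**Figure D1:**
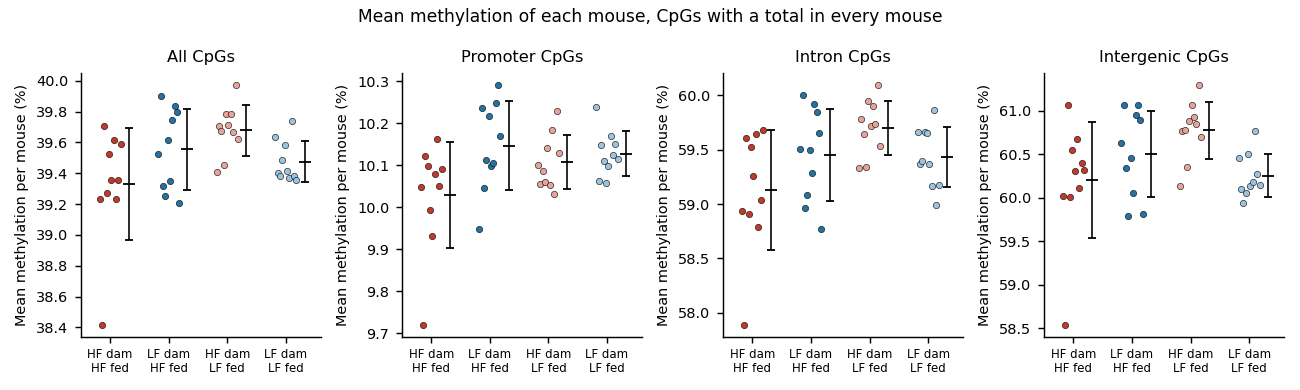
Each point is the mean methylation of 1 mouse (percent) over all CpGs with a total in every mouse, and over those in promoters, introns and intergenic sequence, for the 4 combinations of maternal and post-weaning diet, with the mean and SD of 10 mice beside the points; the y axes do not start at 0. The HF-fed groups overlap in each panel, and a single HF dam animal has the lowest value in all 4 panels.

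By genomic feature, all differences were small and negative. The 13879 promoter CpGs were at 10.03% ± 0.127 in HF dam offspring and 10.15% ± 0.105 in LF dam offspring (SD, n = 10 each), a difference of -0.12 percentage points with a permutation p of 0.0307 that was 0.215 after adjustment over the 7 classes of CpGs. The other exonic CpGs differed by -0.23, the intronic CpGs by -0.32 and the intergenic CpGs by -0.31 percentage points, each with an adjusted permutation p of 0.260 or 0.271. By level, CpGs with a mean below 10% differed by -0.05, CpGs from 10% to 90% by -0.44 and CpGs above 90% by -0.27 percentage points, with adjusted permutation p-values of 0.260. Without replicate 2 of the HF dams the differences were -0.14 for exonic, -0.19 for intronic, -0.12 for intergenic CpGs and -0.17 for CpGs from 10% to 90%, and without replicate 8 of the HF dams that of CpGs above 90% was -0.17. The adjusted permutation p of the promoter class was 0.0374 without replicate 1 of the LF dams. The spread of an animal around the others of its group was 9.10 ± 1.05 percentage points (root mean square over 18614 CpGs between 5% and 95%) in HF dam offspring and 9.09 ± 1.06 in LF dam offspring (permutation test, p = 0.978).

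No CpG differed between the groups at an FDR of 5%. Of 239809 CpGs tested, 0 passed (0%), and the smallest FDR was 0.472. At an unadjusted p below 0.05 there were 8909 CpGs (3.72%). Of these, 3647 (1.52%) had a higher level in HF dam offspring and 5262 (2.19%) a lower level. Without replicate 2 of the HF dams, 3963 were higher and 4805 lower. The quasi-binomial model on reads gave 0 CpGs at an FDR of 5% and 11006 at an unadjusted p below 0.05, and limma, fitted to 262317 CpGs, gave 0 and 11583 (4.42%). The middle of the distribution was close to 0: the median difference was -0.15 percentage points, and 5% of the CpGs lay below -5.86 and 5% above 4.92. Among promoter CpGs 2.65% had an unadjusted p below 0.05, among other exonic CpGs 4.35%, in introns 4.50% and in intergenic sequence 4.55%. Over all coding exons, those in promoters included, it was 3.60%. The share was 2.50% among CpGs with a mean below 10% and 5.11% among those between 10% and 90%.

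**Figure D2:**
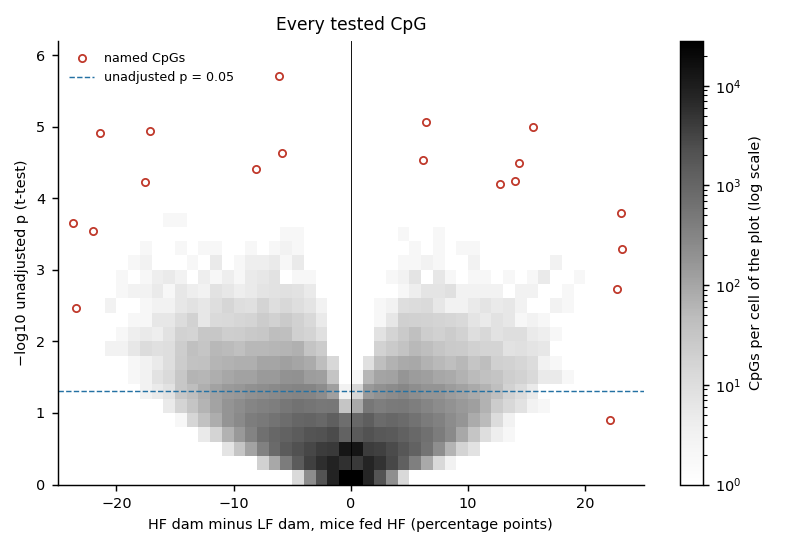
All 239809 tested CpGs, as the number of CpGs (log grey scale) in each cell of the difference between maternal diets (percentage points, animals fed HF) and the unadjusted p (−log10 scale), with the 19 named CpGs as red circles. The dashed line is an unadjusted p of 0.05, and the cloud holds more CpGs below than above a difference of 0 past that line (5262 against 3647).

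The table lists CpGs by position and strand, so that both cytosines of a CG can be counted. The CpGs named next are the 12 with the smallest p, the 4 with the largest positive and the 4 with the largest negative difference, 19 in all because 1 CpG was in 2 of these sets. None passed the FDR, so their values are a description of the extremes of the data. Coordinates are those of the NCBIM37 (mm9) build, and each sequence is the plus strand of that genome around the CpG, in lower case with the measured CG in capitals.

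The CpG with the smallest p lay in an untranslated region of Npas2, the gene of a partner of the clock protein BMAL1, at chromosome 1, position 39251113, 56 bp from the annotated start:

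Npas2: agacggtgggctccCGgagctgctcgccaa

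Its level was 1.96%, 2.53%, 4.55%, 3.03%, 2.78%, 0%, 0%, 0%, 0% and 0% in the HF dam offspring. It was 5.13%, 4%, 9.09%, 5.13%, 8.33%, 8.93%, 10%, 10%, 9.09% and 6.25% in the LF dam offspring. Of the 10 HF dam offspring 9 lay below every animal of the other group. The difference was -6.11 percentage points (SE 0.889, n = 10 each, FDR 0.472), with a permutation p of 8.00e-05. These levels rest on between 16 and 79 reads per animal. None of the 9 neighbouring CpGs within 100 bp had an unadjusted p below 0.05, and the mean over the 33 CpGs of the Npas2 promoter differed by -0.33 percentage points (permutation p = 0.195).

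A CpG in a coding exon of Fgg, which encodes the fibrinogen gamma chain made by hepatocytes, lay at chromosome 3, position 82816893:

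Fgg: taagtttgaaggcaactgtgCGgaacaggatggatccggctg

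It was methylated at 18.2%, 22.6%, 21.1%, 18.8%, 25%, 21.4%, 26.7%, 28.6% and 28.6% in the 9 HF dam offspring that covered it. In the 9 LF dam offspring it was at 37.0%, 41.2%, 38.5%, 47.2%, 25%, 45.2%, 41.7%, 39.4% and 50%. Only replicate 5 of the LF dams lay within the range of the other group. The difference was -17.1 percentage points (SE 2.74, n = 9 each, exact permutation p = 0.000206, FDR 0.587). Without replicate 5 of the LF dams it was -19.1 percentage points with an FDR of 0.0321. All 5 neighbours within 100 bp had lower means in HF dam offspring, and 1 of them had an unadjusted p below 0.05. The neighbours on the strand of the named CpG differed by -10.7, -6.79 and -9.66 percentage points. Those on the other strand differed by -0.14 and -2.32. The opposite direction was seen in animals fed LF after weaning, where the Fgg CpG was at 33.6% ± 7.83 with an HF dam and 26.8% ± 5.49 with an LF dam (SD, n = 10 each).

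An intergenic CpG at chromosome 10, position 83154949, 30661 bp from the nearest start (1500009L16Rik), was the most negative of the 12:

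1500009L16Rik: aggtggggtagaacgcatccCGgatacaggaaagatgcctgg

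The HF dam offspring ranged from 50% to 70% with a median of 57.5%, and the LF dam offspring from 70.6% to 92.9% with a median of 79.6%. The groups did not overlap, and the difference was -21.4 percentage points (SE 3.44, n = 10 and 8, exact permutation p = 4.57e-05, FDR 0.587). Of its 6 neighbours within 100 bp 2 were lower, with a median difference of 0.605 over the 6. In animals fed LF the difference was 7.66 percentage points in the other direction.

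Over all 12 CpGs, 44 of 77 neighbours within 100 bp had the direction of the named CpG, and 3 of the 77 had an unadjusted p below 0.05 (against 3.72% of all CpGs tested). Of the 77, 7 (5 at Ccng2 and 2 at Dgkz) were at 0% in every covered animal of both groups and had neither a direction nor a p. Lower levels in HF dam offspring were found at 3 further CpGs of the 12. At chromosome 15, position 89255626, a coding exon where the annotated genes Chkb (choline kinase beta) and Cpt1b (the muscle form of carnitine palmitoyltransferase 1) overlap, 600 bp from a start of Cpt1b, the levels were 65.4% ± 6.92 (n = 10) and 82.9% ± 7.56 (n = 9, exact permutation p = 0.000108). Of the HF dam offspring 8 of 10 lay below the lowest of the other group. At the promoter of Dgkz, a diacylglycerol kinase (chromosome 2, position 91816109), they were 0.453% ± 0.915 and 6.34% ± 2.86 (n = 9 each, exact permutation p = 0.000452). Most non-zero levels at the Dgkz CpG rest on 1 methylated read, at 11 to 59 reads per animal. The FDR of the Dgkz CpG was 0.822 over all mice. Without replicate 1 of the LF dams, the only animal of its group at 0%, it was 0.00873. The intergenic CpG at chromosome 13, position 112082126, nearest to Actbl2, was at 1.44% ± 2.85 and 9.49% ± 3.46 (n = 9 and 10, exact permutation p = 0.000238).

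Higher levels in HF dam offspring were found at 6 of the 12. In an untranslated region of Ccng2, encoding cyclin G2 (chromosome 5, position 93696781), 8 of 9 LF dam offspring were at 0% and the other at 5.56%, while the 8 HF dam offspring that covered it ranged from 3.70% to 10% (exact permutation p = 0.000247). Most non-zero levels at the Ccng2 CpG rest on 1 methylated read, at 10 to 53 reads per animal. The FDR of the Ccng2 CpG was 0.587 over all mice. Without replicate 5 of the LF dams, the animal at 5.56%, it was 0.0333. An intronic CpG of the gene model Gm20388 (chromosome 8, position 124205485) was at 88.1% ± 4.64 (n = 10) and 72.5% ± 6.27 (n = 9, exact permutation p = 6.50e-05). The intronic CpG of Shq1, an assembly factor of H/ACA ribonucleoproteins (chromosome 6, position 100614393), was at 100% in 9 of 10 HF dam offspring and between 88.2% and 97.7% in the others (exact permutation p = 4.33e-05). An intergenic CpG nearest to Tas1r2, a sweet taste receptor gene (chromosome 4, position 139249659), separated the groups without overlap, with 83.3% to 95% (n = 8) against 68.4% to 82.4% (n = 9, exact permutation p = 8.23e-05). A CpG in an intron of Ltbp2 and in the promoter of D030025P21Rik (chromosome 12, position 86216559) was at 21.7% ± 5.90 (n = 9) and 7.66% ± 5.60 (n = 10, exact permutation p = 8.66e-05). The last, in an intron of Rap1gap2, is described with its bin.

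**Figure D3:**
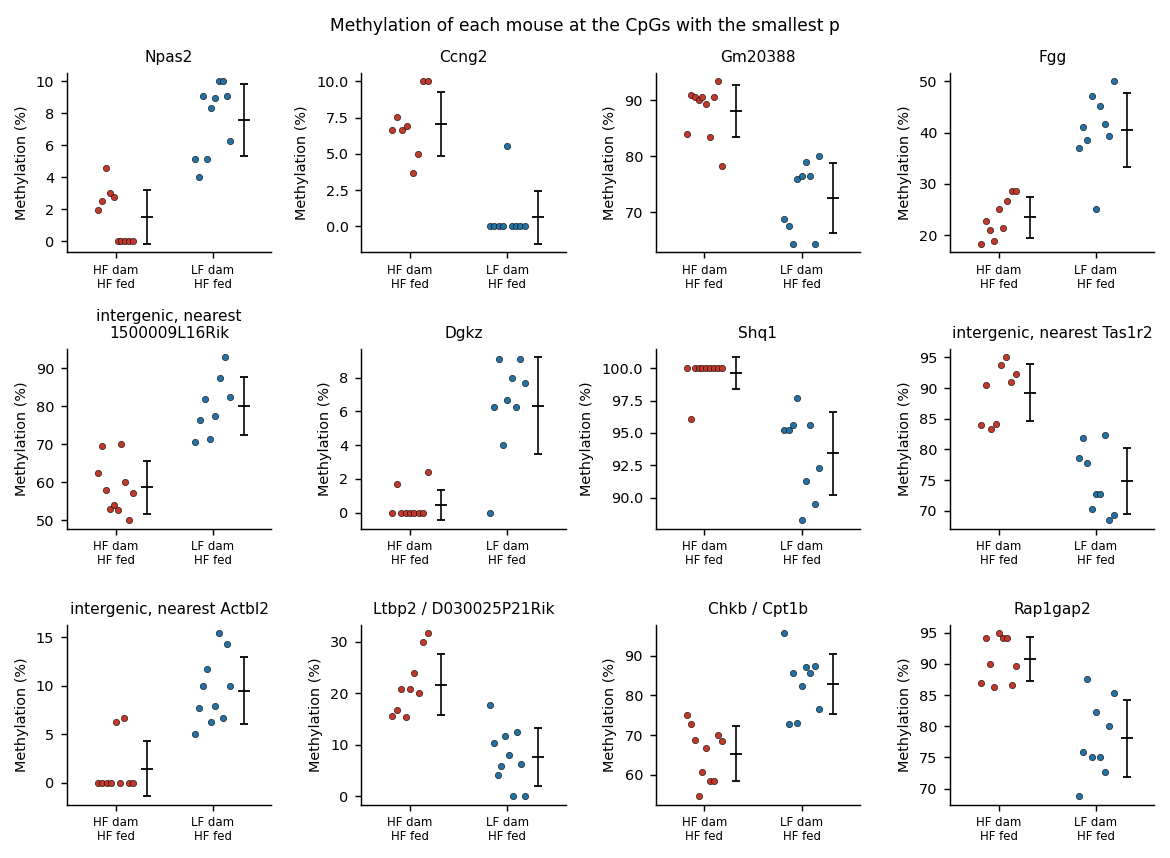
Methylation (percent of reads) at the 12 CpGs with the smallest p in each mouse fed HF, 1 point per mouse with a total, with the mean and SD beside the points; y axes differ and do not start at 0. The groups do not overlap at the CpGs nearest to 1500009L16Rik and Tas1r2, and at the Npas2 CpG 9 of 10 HF dam offspring lie below the other group.

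Of the 8 CpGs with the largest differences, the one nearest to 1500009L16Rik was also among the 12 with the smallest p. The highest positive differences were 23.1 percentage points at an intergenic CpG nearest to Fgf3 (chromosome 7, position 152012829), 23.1 near Ankrd50 (chromosome 3, position 38339676) and 22.7 near Irx1 (chromosome 13, position 71875909). At the Fgf3 CpG the HF dam offspring ranged from 81.2% to 100% and the others from 41.7% to 77.1%, without overlap. The next was a CpG in introns of Gm16163 and 2810004N23Rik (chromosome 8, position 127385539), 22.1 percentage points with an SD of 32.8 and 28.4 and a permutation p of 0.123. Its level ran from 0% to 100% among HF dam offspring and from 0% to 84.6% among LF dam offspring. The most negative differences were -23.7 in introns of BC028471 and 6330406I15Rik (chromosome 5, position 150172605), -23.4 nearest to Trim13 (chromosome 14, position 62207473) and -22.0 nearest to Tha1 (chromosome 11, position 117756329). At the Tha1 CpG all 10 HF dam offspring, from 16.7% to 57.1%, lay below the others, which ranged from 57.6% to 80.8%. These 7 CpGs had an FDR of 0.822 each, and their coverage in the 20 mice was between 10 and 59 reads.

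Means over 1 kb bins with 3 or more CpGs asked whether neighbouring CpGs differed together. Of 30682 bins 0 passed an FDR of 5% (0%), with a smallest FDR of 0.975, and 1432 (4.67%) had an unadjusted p below 0.05, 528 (1.72%) higher and 904 (2.95%) lower in HF dam offspring. Because a mouse with few reads lacks some CpGs of a bin, each difference was also computed after centring every CpG on its mean over all mice (the CpG-centred difference). 

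The bin with the smallest p lay in an intron of Otx1, a homeobox gene of brain and sense organ development (chr11:21898001-21899000). The capitals mark 4 CG sites, which hold its 5 measured cytosines:

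Otx1: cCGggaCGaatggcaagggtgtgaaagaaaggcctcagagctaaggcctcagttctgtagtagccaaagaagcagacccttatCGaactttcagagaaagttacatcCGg

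The HF dam offspring were at 3.16%, 3.80%, 6.08%, 3.84%, 6.37%, 4.61%, 3.30%, 0%, 3.21% and 4.69%. The LF dam offspring were at 9.41%, 6.06%, 6.80%, 9.08%, 6.83%, 4.78%, 9.49%, 9.39%, 10.7% and 9.09%. Of the former, 8 of 10 lay below every animal of the other group. The difference was -4.25 percentage points (SE 0.822, n = 10 each, permutation p = 0.000200, FDR 0.975; CpG-centred -4.23), and all 5 CpGs were lower. In animals fed LF the difference was -0.43 percentage points.

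Other bins with a mean under 10% made up most of the list. In a bin at the start of Esrrg, encoding the orphan nuclear receptor ERR gamma (chr1:189432001-189433000), the levels were 2.11% ± 0.589 and 3.53% ± 0.739 (n = 10 each, permutation p = 0.000240), with 14 of 18 CpGs lower in HF dam offspring. A bin in an untranslated region of Zfp30 (chr7:30569001-30570000), a zinc finger gene, differed by -0.91 percentage points. Bins at Ube2s (-1.54) and in an untranslated region of Eya1 (-3.08), the gene of a transcription coactivator, also had lower means, and the Eya1 bin rests on 3 CpGs. Higher means in HF dam offspring were found at Notum (0.95), Gm17407 (0.88) and in intergenic sequence 259 bp from the start of Fndc3a (2.74). The Fndc3a bin was at 3.55% ± 1.70 in HF dam offspring (n = 10) and 0.810% ± 0.871 in LF dam offspring (n = 9, exact permutation p = 0.000693), with all 4 CpGs higher, and at 0.716% with an HF dam and 1.24% with an LF dam in animals fed LF.

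The gene model Gm20388 held a bin as well as a CpG of the lists. The bin (chr8:124037001-124038000) lay in an intron and held 12 measured cytosines in 10 CG sites (capitals), every one of which was higher in HF dam offspring:

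Gm20388: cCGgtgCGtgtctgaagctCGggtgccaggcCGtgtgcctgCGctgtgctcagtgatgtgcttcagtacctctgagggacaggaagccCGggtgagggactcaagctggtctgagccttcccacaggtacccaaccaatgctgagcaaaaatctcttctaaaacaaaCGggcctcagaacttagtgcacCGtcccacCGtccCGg

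These animals ranged from 22.7% to 30.4% with a median of 24.95%, and the LF dam offspring from 11.4% to 23.3% with a median of 19.8%. Of the HF dam offspring, 9 of 10 lay above the highest animal of the other group. The difference was 5.72 percentage points (SE 1.25, permutation p = 6.00e-05; CpG-centred 5.70), and 0.94 in animals fed LF.

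Rap1gap2, which encodes a GTPase-activating protein of the small GTPase RAP1, was named by both the CpG and the bin rules and had the same direction under both post-weaning diets. Its 4 measured CpGs lay within 42 bp of an intron (chr11:74266541-74266582):

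Rap1gap2: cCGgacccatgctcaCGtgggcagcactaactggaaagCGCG

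The HF dam offspring were at 94.6%, 94.9%, 94.2%, 92.0%, 93.6%, 95.6%, 97.1%, 90% and 94.0%, and the LF dam offspring at 84.4%, 87.1%, 90.6%, 87.5%, 86.8%, 91.5%, 90.9%, 87.1% and 93.4%. Of the former, 7 of 9 lay above all of the latter. The difference was 5.18 percentage points (SE 1.18, n = 9 each, exact permutation p = 0.000905, FDR 0.975). In animals fed LF the Rap1gap2 bin was at 93.9% ± 3.15 with an HF dam and 87.8% ± 6.17 with an LF dam, a difference of 6.15 percentage points with an unadjusted p of 0.0128 (5.29% of all bins had one below 0.05 there). Most of the difference was at the last of the 4 CpGs, position 74266581, where it was 12.7 percentage points in animals fed HF (exact permutation p = 0.000165) and 9.17 in animals fed LF. The other CpGs of the bin differed by 1.41 to 4.44 percentage points in animals fed HF.

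**Figure D4:**
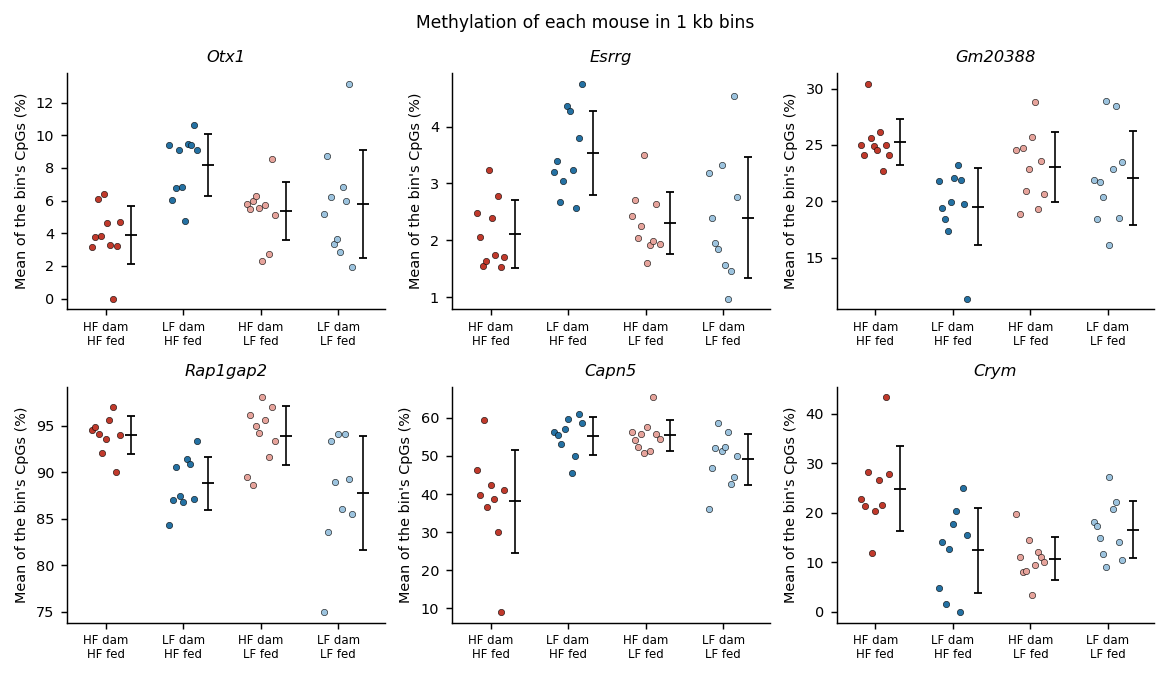
Mean methylation (percent) of 6 named 1 kb bins in each mouse for the 4 combinations of diets, with the mean and SD of each group beside the points; y axes differ and do not start at 0. At Rap1gap2 the HF dam offspring are higher under both post-weaning diets (93.98% against 88.81% and 93.93% against 87.78%), and at Capn5 and Crym the HF-fed and LF-fed differences have opposite signs.

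Of the 8 bins with the largest plain differences, 4 were nearly as large when CpG-centred (Capn5, Camk2b, Pou3f3 and Fras1). The other 4 were smaller when CpG-centred, at Usp30 (-15.7 plain and -5.52 CpG-centred), Hpcal1 (-14.7 and -6.39), Tbc1d1 (12.99 and 7.27) and nearest to Cacna1e (12.7 and 2.91). An intronic bin of Capn5, a calpain gene (chr7:105273001-105274000), was at 38.2% ± 13.5 in HF dam offspring and 55.2% ± 4.95 in LF dam offspring (n = 9 each, exact permutation p = 0.00111), a difference of -17.1 percentage points (CpG-centred -16.7). The shallow library of replicate 9 of the HF dams was the lowest at 9.09% and replicate 3 the highest at 59.5%. The 3 CpGs of the Capn5 bin are in capitals:

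Capn5: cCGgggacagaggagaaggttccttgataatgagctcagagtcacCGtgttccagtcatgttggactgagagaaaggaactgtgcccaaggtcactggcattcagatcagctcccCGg

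In animals fed LF the Capn5 bin was 6.30 percentage points higher with an HF dam (55.4% ± 4.17 against 49.1% ± 6.69), and the interaction of both diets had an unadjusted p of 8.54e-05 and an FDR of 0.524. An intronic bin of Camk2b, a calcium/calmodulin-dependent kinase gene (chr11:5907001-5908000), was higher by 13.9 percentage points (64.7% ± 12.8, n = 8, and 50.8% ± 9.30, n = 9, exact permutation p = 0.0151), and its 5 CpGs, within 25 bp, were each higher by 12.5 to 15.1. Intergenic bins nearest to Pou3f3 and Fras1 differed by 15.2 and -14.6 percentage points. By CpG-centred differences, a rule added after the values had been seen, the bins at Crym (12.5), nearest to Gm14234 (11.9), at Tbx1 (-13.9) and nearest to G730013B05Rik (-13.7) joined them. The Crym bin lay in a coding exon of the gene for mu-crystallin, a thyroid hormone binding protein (chr7:127334001-127335000). It was at 24.9% ± 8.51 and 12.4% ± 8.60 (n = 9 each, exact permutation p = 0.00539), and in animals fed LF it was lower with an HF dam (10.8% against 16.6%). The bin nearest to Gm14234 was higher with an HF dam under both diets, by 11.9 and 10.98 percentage points, with 2 of its 3 CpGs higher in animals fed HF.

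Promoters were taken as 1000 bp before to 500 bp after every annotated start of a gene, and 11001 with 3 or more CpGs were tested. At an FDR of 5% 0 passed (0%), with a smallest FDR of 0.540. There were 481 (4.37%) with an unadjusted p below 0.05, 189 (1.72%) higher and 292 (2.65%) lower in HF dam offspring. The smallest p was at Atp5g1, which encodes the c subunit of the mitochondrial ATP synthase. Its 5 CpGs (chr11:95936525-95936572) were at 1.26% ± 0.717 in HF dam offspring, from 0% to 2.23%, and at 4.21% ± 1.63 in LF dam offspring, from 1.18% to 6.86% (n = 10 each, permutation p = 0.000140). The ranges overlapped through 1 LF dam animal, replicate 3, without which the FDR of the Atp5g1 promoter was 0.0278. The CpG-centred difference was -3.29 percentage points.

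The promoter of Zfp30 held the CpGs of its bin, as did that of Eya1. The promoters of Bahcc1 and Gm11772 shared 8 CpGs, at 0.554% and 2.64%. Crabp1, a cytoplasmic retinoic acid binding protein gene, was at 5.63% ± 1.11 and 8.47% ± 1.87 (n = 10 each, permutation p = 0.000700), and Ctsd, the gene of the lysosomal protease cathepsin D, at 0.902% and 1.99%. B4galnt4 (-1.65 percentage points) and 3110082J24Rik (-4.63) were lower, and Ptplad1 (1.22), Dis3 (0.45) and Slc38a3 (2.18) higher in HF dam offspring. Slc38a3 encodes a glutamine transporter of the liver. At B4galnt4 the difference in animals fed LF had the same sign (-1.33 percentage points, unadjusted p = 0.0181, where 5.05% of all promoters had one below 0.05).

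The largest promoter differences as plain means were much smaller when CpG-centred. At Nisch the plain mean was 54.2% ± 30.2 in HF dam offspring and 34.0% ± 1.54 in the others, but the CpG-centred difference was 2.49 percentage points, against 20.2 as a plain mean. At Thop1 and Il6ra the plain differences of -21.1 and -14.7 turned to 0.616 and 0.788 when CpG-centred. Of the 8 promoters with the largest plain differences, 7 had a CpG-centred difference under 50% of the plain one, and this held for 3 of the 8 such bins. By CpG-centred differences the most positive promoter was that of Nrbp2 (70.4% ± 7.22 against 60.8% ± 7.91, n = 10 each, permutation p = 0.0104), and the most negative were those of D130017N08Rik (-11.4 percentage points), Atg2a, an autophagy gene (-10.6), and Vil1, the gene of the actin-binding protein villin (-9.16).

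Of the 15 tested promoters of cholesterol synthesis and uptake genes, 9 were higher and 6 lower by plain means. By this measure only that of Srebf2 had an unadjusted p below 0.05 (lower, against 2.65% of all promoters). Srebf2 encodes the transcription factor that drives cholesterol synthesis. The Srebf2 promoter was at 1.17% ± 0.857 in HF dam offspring and 1.99% ± 0.709 in LF dam offspring (n = 10 each, permutation p = 0.0325, FDR 0.953). In animals fed LF it was 1.09 percentage points higher with an HF dam. The median over the list was 0.05 percentage points as plain means and -0.11 CpG-centred, against -0.03 and -0.04 over all promoters tested. With a negative median, more of the 15 were lower than higher when CpG-centred. None of 17 promoters of fatty acid genes (smallest p at Fasn, the fatty acid synthase gene, -0.47 percentage points), 16 of glucose and insulin genes (Slc37a4, the glucose-6-phosphate transporter gene, 1.66) and 3 of bile acid genes (Cyp7b1, an oxysterol hydroxylase gene, -0.58) had an unadjusted p below 0.05 (against 4.37% of all promoters).

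Among nuclear receptors, RXR partners and their cofactors, 14 of 19 promoters were lower and 5 higher, and 2 had an unadjusted p below 0.05, both lower (against 2.65% of all promoters, of which 5690 of 11001 were lower). These were Rarg, the retinoic acid receptor gamma gene (3.51% ± 0.976 against 4.97% ± 1.72, n = 10 each, permutation p = 0.0302), and Ppard, the PPAR delta gene (0.139% against 0.803%). The list's median was -0.23 percentage points. Of 9 acute phase promoters none had an unadjusted p below 0.05, including that of Fga, which encodes the alpha chain of fibrinogen (15.2% against 17.95%). The smallest p was at Nfkb1, a subunit of the inflammatory transcription factor NF-kappa-B (-3.18 percentage points, exact permutation p = 0.129). Of the 13 circadian clock promoters 9 were lower and 4 higher, with none at an unadjusted p below 0.05.

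Some imprinted promoters lay near the middle of the scale in both groups, among them Plagl1 (47.0% ± 3.82 against 43.3% ± 5.32), Peg10 (46.4% against 44.7%), Mcts2 (48.8% against 51.1%) and Gnas (46.9% against 49.6%). None of 18 had an unadjusted p below 0.05. Over all CpGs of the imprinted list, CpG-centred, the level was 27.9% ± 1.70 in HF dam offspring and 28.4% ± 1.56 in LF dam offspring (SD, n = 10 each). Germline gene promoters, which are methylated in somatic cells, were at 83.9% ± 1.12 and 83.7% ± 1.21. Of 6 tested, that of Mael, a gene of transposon silencing in the germline, had an unadjusted p below 0.05 (higher, against 1.72% of all promoters, 90.8% ± 3.15 against 87.1% ± 3.98, n = 9 each, exact permutation p = 0.0456). The 17 promoters of genes for DNA methylation and demethylation enzymes and their methyl donors held none at an unadjusted p below 0.05, with Dnmt1 at 1.89% and 2.01%. Of the loci that the study took forward from its own expression results to locus-specific bisulfite sequencing, 11 promoters were tested. By plain means 3 were higher and 8 lower, and 1 (Srebf2) had an unadjusted p below 0.05 (lower, against 2.65% of all promoters). That list was chosen on expression in the same animals and is not independent evidence.

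Promoters of cell type markers were described in the same way. Of 27 hepatocyte genes 8 promoters were tested, 7 of them higher in HF dam offspring (5311 of 11001 over all promoters), with 1 at an unadjusted p below 0.05 (higher, against 1.72% of all promoters): Onecut1, the gene of the hepatocyte transcription factor HNF6 (3.23% ± 2.16 against 1.502% ± 0.661, n = 10 each, permutation p = 0.00396), where the shallow library of replicate 9 of the HF dams was the highest at 8.59%. The CpG-centred level over the hepatocyte promoters was 6.00% ± 0.737 (from 5.23% to 7.50%) and 5.75% ± 0.519 (from 4.98% to 6.79%). The lymphocyte and leukocyte promoters were at 14.7% ± 0.731 and 14.8% ± 0.575. Endothelial promoters were at 45.8% ± 4.13 and 45.0% ± 2.69, stellate cell and fibroblast promoters at 6.71% ± 0.590 and 6.62% ± 0.772, and bile duct promoters at 5.99% ± 0.499 and 6.74% ± 0.936. Tested were 3 lymphocyte and leukocyte, 2 endothelial, 4 stellate cell and fibroblast and 5 bile duct promoters. The Kupffer cell and macrophage list was represented by Itgam alone (85.9% against 86.8%). The part of cell composition in any of the differences was not tested.

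The animals fed LF after weaning were used to see whether the maternal differences held on another diet. At the 1000 CpGs with the smallest p, 47.9% had the same direction in animals fed LF, and at the 200 bins with the smallest p 55.5%, against 49.6% of all CpGs tested under both diets and 49.7% of all bins. The median size of the difference at those 1000 CpGs was 8.44 percentage points in animals fed HF, by whose p they were chosen, and 1.998 in animals fed LF. Over all CpGs tested under both diets it was 1.51 and 1.45. Of the 19 named CpGs 7 had the same direction, and 4 had an unadjusted p below 0.05 in animals fed LF (3.99% of all CpGs there): Rap1gap2 and the CpG of BC028471 (-12.4 percentage points) with the same direction, and Fgg (6.77) and the CpG nearest to Trim13 (15.2) with the opposite direction. The difference of the differences, (HF dam minus LF dam in animals fed HF) minus (the same in animals fed LF), was tested at every CpG, bin and promoter in a linear model. None of 254765 CpGs, 30687 bins and 11005 promoters passed an FDR of 5%, with 10639 (4.18%), 1591 (5.18%) and 517 (4.7%) at an unadjusted p below 0.05 and smallest FDR of 0.349, 0.524 and 0.628. By limma none passed either, with 12506, 1545 and 515 at an unadjusted p below 0.05. The CpGs of Fgg (-23.9 percentage points, p = 1.54e-06) and nearest to 1500009L16Rik (-29.0, p = 2.95e-06) had the FDR of 0.349.

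**Figure D5:**
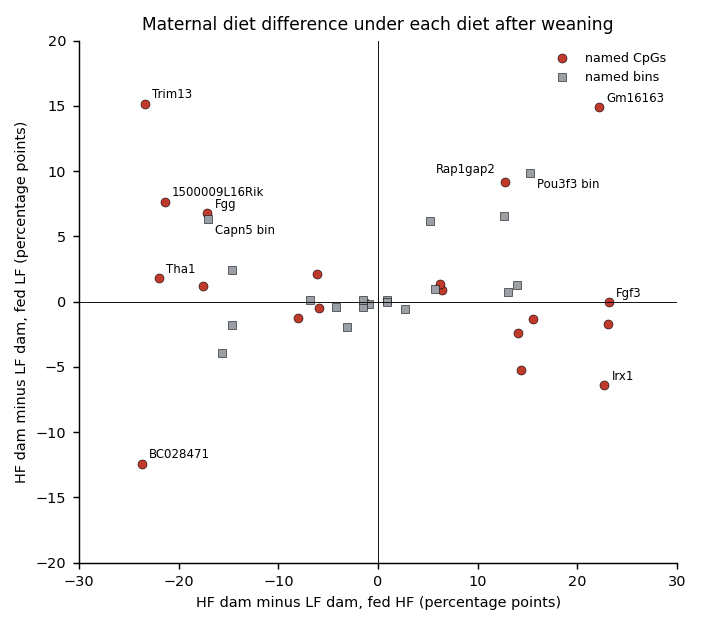
Difference between HF dam and LF dam offspring (percentage points) in animals fed HF (x axis) against the same in animals fed LF (y axis), for the 19 named CpGs (circles) and 20 named bins (squares). Rap1gap2 and BC028471 lie in quadrants of equal sign and Fgg, Trim13 and the Capn5 bin in that of opposite signs; the points were chosen by the x axis alone.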

How the data were processed

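RRBS libraries of 40 livers were made by the authors from MspI fragments of 150 to 600 bp, sequenced on a HiSeq instrument and aligned with Bismark to mm9 (submitters' processing notes and methods). The deposited counts, without normalization, give methylated and total reads per CpG and mouse, and totals under 10 reads are missing. There were 0 columns of no mapped mouse. Of 400298 CpGs listed, 262317 had a total in 36 or more mice and were analysed. CpGs without variance in both groups had no p.

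Percent methylation was computed per CpG, and averaged over the CpGs that a mouse covered for 1 kb bins and promoters with 3 or more CpGs. Genes came from the GENCODE vM1 annotation of the same build. Each group of 10 was compared by a 2-sided Student's t-test, as in the study's methods, with Benjamini-Hochberg adjustment over all features of a kind. Single values were compared by permutation tests (100000 resamples, smallest p 1e-05), or exact ones where a group had fewer than 10 values. Interactions were fitted over all 40 mice. Python 3.11.15 (scipy 1.17.1) and limma 3.58.1 in R 4.3.3 were used, and the tests were checked on simulated reads. Named were the 12 smallest p, the 4 largest differences each way and any FDR below 5% of CpGs, bins and promoters, with the smallest p of each gene list; not all are described, and some items are not reported here. Of the gene lists' symbols, those not in the annotation were sought among RefSeq synonyms. The animals, gene lists and rules were chosen with earlier results of these data known. Alternatives are given in the closing section. Reads are not separate molecules, so coverage gives counting error only.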

Additional observations from a re-analysis of the deposited data

Results flagged for a closer look

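The maternal difference in mean methylation differed between the post-weaning diets. It was -0.22 percentage points in animals fed HF and 0.20 in animals fed LF (39.68% against 39.47%, permutation p = 0.00804), and the difference of these was -0.43 (p = 0.00532 from permuting maternal diet within each post-weaning diet, 0.0217 adjusted over 8 values). It was -0.42 for exonic CpGs, -0.60 for intronic, -0.82 for intergenic CpGs and -0.92 for CpGs between 10% and 90% (adjusted permutation p from 0.0217 to 0.0347). It was -0.097 for promoter CpGs, -0.046 for CpGs below 10% and -0.53 for CpGs above 90% (adjusted permutation p = 0.141, 0.252 and 0.0559). Over all CpGs of each mouse, which differ between mice with depth, the difference of the mean was 0.017 (permutation p = 0.974). This test was added after seeing the data.

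Single animals stood apart from their group in 19 of 146 groups of values by Dixon's test. Chance flags about 1 of 20 groups where values are independent and normally distributed. Here the classes share CpGs, and some groups held almost only 0% or 100%, so these rates cannot be compared. Replicate 2 of the HF dams, with the most reads, had the lowest mean over all CpGs (38.4%, next 39.2%), promoter (9.72%), intronic (57.9%), intergenic (58.5%) and 10% to 90% CpGs (58.1%), and was the only animal of its group below 100% at the Shq1 CpG (96.1%). Among CpGs the others were 36.4% near Ankrd50 and 100% near Fgf3 (HF dams, replicates 7 and 5) and 5.56% at Ccng2 (LF dams, replicate 5). Among bins they were Camk2b (27.5%), Gm14234 (80.5%) and Gm20388 (11.4%) in LF dam animals and Gm17407 (2.76%), Gm20388 (30.4%) and Otx1 (0%) in HF dam animals. Among promoters they were 3110082J24Rik (15.7%, LF dams) and Nfkb1 (10%), Onecut1 (8.59%) and Vil1 (30%, all HF dams); the Onecut1 value came from replicate 9, the library with the fewest reads.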

How the results depend on the processing

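No CpG, bin or promoter passed an FDR of 5% under the exact Wilcoxon rank-sum test, limma, the level filter or the depth covariate, no CpG under Welch's test, the quasi-binomial model or the coverage and strand alternatives, and no bin or promoter under the alternative region means, and the share at an unadjusted p below 0.05 stayed within 1.5 times the main value. Of promoters with a mean from 5% to 95%, 95 of 114 at an unadjusted p below 0.05 were lower (83.3%), against 60.7% of those over all promoters, and by limma 54.7% of such CpG interactions were negative, against 62.6%. Leaving out each of the 20 mice in turn gave 0 to 2 CpGs (3.65% to 3.77% at an unadjusted p below 0.05), 0 bins (4.56% to 4.87%) and 0 to 1 promoters (4.16% to 4.60%); 1 CpG passed without replicate 1 of the LF dams (Dgkz), 2 without replicate 5 (Fgg and Ccng2) and 1 promoter without replicate 3 (Atp5g1). The mean difference ranged from -0.27 to -0.12, and the promoter class from -0.14 (adjusted permutation p = 0.0374) to -0.083. The difference in spread was 0.01 percentage points and turned to -0.19 without the mouse with the fewest reads and -0.18 without the 3 mice under 5000000 reads, an alternative added after seeing the data. The interaction of both diets in mean methylation, also added, was -0.43 over CpGs covered in every mouse and 0.017 over all CpGs of each mouse, which differ between mice with depth; leaving out each of 40 mice gave -0.47 to -0.33. Differences of the 19 named CpGs and 20 named bins kept their sign under every alternative run; of the 20 named promoters Thop1 (0.616) and Il6ra (0.788) turned sign when CpG-centred. No paired analysis was possible because the replicate numbers were given in accession order and pair no animals. With a median of 12 to 54 reads per CpG, depth limits the precision of a single CpG more than that of a bin or promoter mean.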

Other observations

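Bins with the smallest p by CpG-centred means, a rule added after the values had been seen, included 3 that the plain means did not name. A bin at the start of Arhgef2, encoding a microtubule-associated RhoA exchange factor (chr3:88425001-88426000), had 21 of 28 CpGs lower in HF dam offspring, with plain means of 4.29% ± 1.36 and 7.12% ± 2.07 (SD, n = 10 each) and a CpG-centred difference of -2.62 percentage points (permutation p = 0.000260). In animals fed LF the Arhgef2 difference was -1.94, the same direction (unadjusted p = 0.0790). An intronic bin of Rgma, the gene of a BMP co-receptor (chr7:80537001-80538000), was at 6.08% ± 1.07 and 10.2% ± 3.48 with 5 of 7 CpGs lower, and a coding exon bin of Odz2, a teneurin gene (chr11:35860001-35861000), at 92.0% ± 1.91 and 95.1% ± 2.23 with 8 of 9 CpGs lower. The FDR of each was 0.963.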
